A study of Mus musculus with 6 samples.

Results

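The genes described here form the lactogen axis of mouse islets: the receptors for prolactin and growth hormone (*Prlr* and *Ghr*), the STAT5 transcription factors (*Stat5a* and *Stat5b*) and 6 responder genes (*Cish*, *Socs2*, *Bcl6*, *Cldn8*, *Matn2* and *Lrrc55*). They are 10 of the 55060 genes measured, found by their gene symbols. The set was chosen by measured values, namely how these genes differed between the genotypes in these same samples, so their differences are given as a description with no test.

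Lactogens are the hormones prolactin and placental lactogen, and growth hormone is a related hormone with a related receptor of its own. Binding of the hormone brings receptor chains together, the attached kinase JAK2 phosphorylates STAT5, and STAT5 enters the nucleus to switch target genes on or off. In β cells this signal is best known from pregnancy, when it raises β-cell proliferation and serotonin synthesis, and CISH and SOCS2 are classical feedback inhibitors that STAT5 itself induces.

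The mice were 12 weeks old, and each genotype, Ctrl and cKO, was represented by 3 samples of isolated islets. The cKO mice were *Ins2-Cre; Parn f/f*, in which Cre driven by the *Ins2* promoter removes a floxed exon of *Parn*, a poly(A)-specific ribonuclease, in β cells. Ctrl mice were *Parn f/f* animals and other littermates, and the floxed allele is thus shared by cKO mice and the *Parn f/f* controls. Whole islets were used, which also hold α, δ, PP and vascular cells, and the labels give neither sex, the number of animals in a sample, nor whether a Ctrl sample carried Cre. The *Ins2-Cre* line used is known to carry a human growth hormone minigene behind the Cre sequence, and human growth hormone is a ligand of the prolactin receptor. Where Ctrl samples lacked the transgene, the transgene and the loss of *Parn* cannot be told apart. In bulk islets, fewer cells of a type and less RNA per cell cannot be told apart either.

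Expression was given as FPKM, read counts divided by gene length and a size for each library, which sets genes of different length on 1 scale. Read back from these values, the reads on genes were 17519109 in Ctrl replicate 1, 16470783 in replicate 2 and 17143763 in replicate 3. For cKO islets they were 17064511, 16289408 and 17944775 in the same order. The sizes used as divisors were 17448159, 15731223 and 16636542 in Ctrl and 17567373, 17386442 and 18085944 in cKO libraries. They were below the reads on genes in every Ctrl library and above them in every cKO library, so they are not read totals. The median-of-ratios factor of the deposited values was the same in every sample, which means that these were already scaled between samples. *Parn* was at 6.64, 8.34 and 7.38 FPKM in Ctrl islets and at 4.97, 4.61 and 6.15 FPKM in cKO islets. Every cKO sample was thus below every Ctrl sample, with *Parn* RNA remaining in all of them.

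Some libraries stood apart. Ctrl replicate 1 correlated least with the other samples, with a mean r of 0.951 across genes, and its 8 leukocyte markers summed to 1046 FPKM against 181 to 311 in the others. Reads of 4 Y-linked genes and of *Xist*, which is transcribed from the inactive X chromosome, occurred together in Ctrl replicates 1 and 2 and in cKO replicate 1. Their Y-linked sums were 14.3, 10.2 and 2.99 FPKM, and *Xist* was at 24.1, 20.4 and 29.9 FPKM. Ctrl replicate 3 and cKO replicate 2 had no Y-linked reads, while cKO replicate 3 had a Y-linked sum of 28.7 FPKM and *Xist* at 0.139 FPKM. The makeup of the samples by sex was therefore uneven between and within genotypes, and its part in the results was not tested.

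The 9 β-cell markers were abundant in all samples, as the label islet implies, and summed to 234872, 267509 and 275394 FPKM in Ctrl and 193978, 203768 and 216223 FPKM in cKO islets. *Ins2*, their most abundant gene, took 20.2%, 21.4% and 22.7% of the reads in Ctrl and 14.7%, 17.4% and 17.6% in cKO libraries. Both measures were lower in every cKO sample than in every Ctrl sample, but the sum is mostly *Ins2*, and of the 9 markers only *Ins2* and *Iapp* were without overlap. *Ins1*, *Pdx1*, *Nkx6-1*, *Mafa*, *Slc2a2*, *Ucn3* and *Slc30a8* overlapped. The genes below that were higher in cKO islets were so beside a lower share of the main β-cell transcript, and since FPKM are relative, the effect of another library size is given at the end.

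The first question was whether islets make the hormones themselves. Of the 6 ligand genes (*Gh*, *Prl*, *Prl3d1*, *Prl3d2*, *Prl3d3* and *Prl3b1*), none reached the mean of 0.1 FPKM needed for the fit. *Gh*, growth hormone, had 1 read in Ctrl replicate 1 and none in the other 5 samples. *Prl*, prolactin, had 1 read in Ctrl replicate 2 and none elsewhere. A count of 3 reads, taken as the floor of detection for counting error, correspond to 0.192 to 0.221 FPKM of *Gh* and to 0.118 to 0.135 FPKM of *Prl*. Transcripts of the mouse ligand genes were not detectable above this floor in either genotype. Human growth hormone is no gene of this mouse table and was not measured here.

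Among the receptors, *Prlr* was the member with the higher mean level and the one that was higher in cKO islets, although *Ghr* was above it in Ctrl replicate 2. *Prlr* encodes the prolactin receptor, in long and short forms, which the table adds up over the gene at chr15:10177238-10349180 (GRCm38, plus strand). Its level was 27.1, 14.7 and 24.9 FPKM in Ctrl and 33.9, 33.4 and 43.8 FPKM in cKO islets. All 3 cKO samples lay above all 3 Ctrl samples, and Ctrl replicate 2 was the lowest. The mean was 22.2 ± 6.66 FPKM (SD, n = 3) in Ctrl and 37.0 ± 5.88 in cKO islets, a ratio of 1.67. On the log2(FPKM + 1) scale used for all fold changes here, the difference was 0.75 (SE 0.24), and it was 0.48 without Ctrl replicate 2 and 0.91 without Ctrl replicate 1.

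*Ghr*, the growth hormone receptor and the closest relative of *Prlr* in the set, went the other way. It lies on the same chromosome (chr15:3317760-3583492, minus strand) and was at 13.5, 17.1 and 20.2 FPKM in Ctrl and 12.3, 12.3 and 14.5 FPKM in cKO islets. The groups overlapped, since Ctrl replicate 1 was below cKO replicate 3. The log2 difference was -0.34 (SE 0.15) and stayed between -0.48 and -0.21 when single samples were left out. As with *Prlr* alone, the ratio of the pair did not overlap between genotypes. FPKM of *Ghr* relative to *Prlr* was 0.497, 1.17 and 0.810 in Ctrl islets and 0.363, 0.369 and 0.330 in cKO islets.

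The transcription factors of the axis overlapped between genotypes. *Stat5b*, the more abundant of the pair, was at 13.3, 15.4 and 19.1 FPKM in Ctrl and 14.2, 13.0 and 18.0 FPKM in cKO islets. *Stat5a* was at 1.90, 2.03 and 3.11 FPKM in Ctrl and 2.01, 1.54 and 1.96 FPKM in cKO islets. For both genes replicate 3 of Ctrl was the highest sample. The log2 differences were -0.07 (SE 0.17) for *Stat5b* and -0.22 (SE 0.17) for *Stat5a*, which was at -0.07 without Ctrl replicate 3. That of *Stat5b* ranged from -0.20 to 0.06 when single samples were left out, so its sign depended on the sample left out.

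*Stat5a* and *Stat5b* are related neighbours, 8626 bases apart on chromosome 11. Of all windows of 50 bases, 608 were shared, which is 14.7% of those of *Stat5a* and 11.1% of those of *Stat5b*. How reads common to both were assigned is not given in the sources used here, so the split between them is uncertain. *Stat5a* also shares 72 exonic bases with *Stat3* on the other strand.

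STAT5 binds the palindrome TTCNNNGAA, which reads the same on both strands and which the repressor BCL6 also recognises in part. To show where these letters stand near the genes, promoters were taken from RefSeq (GRCm38.p6) as 300 bases, of which 250 precede the annotated start and 50 follow it. Of the 10 genes, 7 had a promoter there and 13 promoters were listed. *Socs2*, *Cldn8* and *Matn2* were not among them. The motif occurred in 4 of the 13 promoters, belonging to *Prlr*, *Cish* and *Bcl6*, whereas 8.30% of all 32851 mouse promoters of this table held at least 1 match, 0.457% at least 2 and 0.0335% at least 3. Shown are 3 of these 4 promoters, 1 each of a receptor, a feedback inhibitor and a repressor, written 5′ to 3′ on the gene's strand with the matches in capitals. The *Prlr* promoter (chr15:10223656-10223955, plus strand) belongs to an internal start and holds 1 match. The *Cish* promoter (chr9:107296409-107296708, plus strand) holds 2, and the *Bcl6* promoter (chr16:23981234-23981533, minus strand), also of an internal start, holds 3. None of the 3 stands at the outermost start annotated for its gene.
Prlr: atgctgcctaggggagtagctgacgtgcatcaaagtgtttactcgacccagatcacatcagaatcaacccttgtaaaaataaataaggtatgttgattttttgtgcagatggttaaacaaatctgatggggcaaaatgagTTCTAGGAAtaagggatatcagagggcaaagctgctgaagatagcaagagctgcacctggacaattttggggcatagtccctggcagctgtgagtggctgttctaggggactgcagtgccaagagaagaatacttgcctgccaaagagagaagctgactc
Cish: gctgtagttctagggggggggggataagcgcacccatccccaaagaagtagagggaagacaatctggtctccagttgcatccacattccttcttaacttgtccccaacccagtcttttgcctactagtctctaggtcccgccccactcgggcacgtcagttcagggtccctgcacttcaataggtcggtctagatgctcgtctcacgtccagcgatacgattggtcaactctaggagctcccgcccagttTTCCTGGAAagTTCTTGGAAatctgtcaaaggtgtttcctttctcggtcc
Bcl6: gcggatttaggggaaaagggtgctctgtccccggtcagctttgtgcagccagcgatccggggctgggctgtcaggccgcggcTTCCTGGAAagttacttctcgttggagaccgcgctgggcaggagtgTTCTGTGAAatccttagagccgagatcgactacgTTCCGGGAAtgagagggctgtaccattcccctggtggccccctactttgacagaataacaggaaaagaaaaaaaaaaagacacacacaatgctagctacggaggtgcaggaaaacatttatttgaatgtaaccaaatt

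The *Cish* matches, TTCCTGGAA and TTCTTGGAA, lie at the start annotated for that promoter, and the *Prlr* match TTCTAGGAA lies 110 bases before its start. Those of *Bcl6* are TTCCTGGAA, TTCTGTGAA and TTCCGGGAA, so that 1 of the 3 spells the same letters as the first match of *Cish*. A second *Bcl6* promoter (chr16:23988803-23989102), at the start that lies first along the gene, holds 1 match, TTCTCAGAA. No match stood in the other 2 *Prlr* windows, 1 of them at the start (chr15:10176988-10177287) that lies first along the gene, or in the windows of *Ghr*, *Stat5a*, *Stat5b* or *Lrrc55*. A match is a run of letters and says nothing of binding in these islets.

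The feedback inhibitors were both higher in cKO islets, each by less than 1 on the log2 scale. *Cish*, which blocks STAT5 docking at activated receptors, was at 9.58, 16.0 and 18.5 FPKM in Ctrl and 34.2, 21.9 and 20.1 FPKM in cKO islets. The groups did not overlap, but cKO replicate 3 was close to Ctrl replicate 3. Its log2 difference was 0.76 (SE 0.28), with a ratio of means of 1.73, and it was 0.50 without Ctrl replicate 1 and 0.53 without cKO replicate 1.

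*Socs2*, which dampens signalling from the growth hormone receptor, was at 5.69, 6.76 and 5.37 FPKM in Ctrl and 11.8, 8.82 and 9.36 FPKM in cKO islets. No samples overlapped, and the Ctrl samples lay close together. The log2 difference was 0.66 (SE 0.14) and the ratio of means 1.68. Leaving out single samples gave 0.54 to 0.74, the narrowest range among the 6 genes of the set that were higher.

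*Bcl6* is a transcriptional repressor that growth hormone and STAT5 are known to hold down in liver, which sets no direction for islets. Here *Bcl6* was low and not higher in cKO islets. It was at 2.49, 0.455 and 0.538 FPKM in Ctrl and 0.646, 0.549 and 0.809 FPKM in cKO islets. Ctrl replicate 1 alone was high, the other 5 samples lay together, and the groups overlapped. This replicate is also the library with the high leukocyte sum, and *Bcl6* is used by lymphocytes, but the part of those cells in this value was not tested. The log2 difference was -0.25 (SE 0.34) with all samples and 0.15 without Ctrl replicate 1, against -0.44 without Ctrl replicate 3, so its direction rested on that library.

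**Figure D1:**
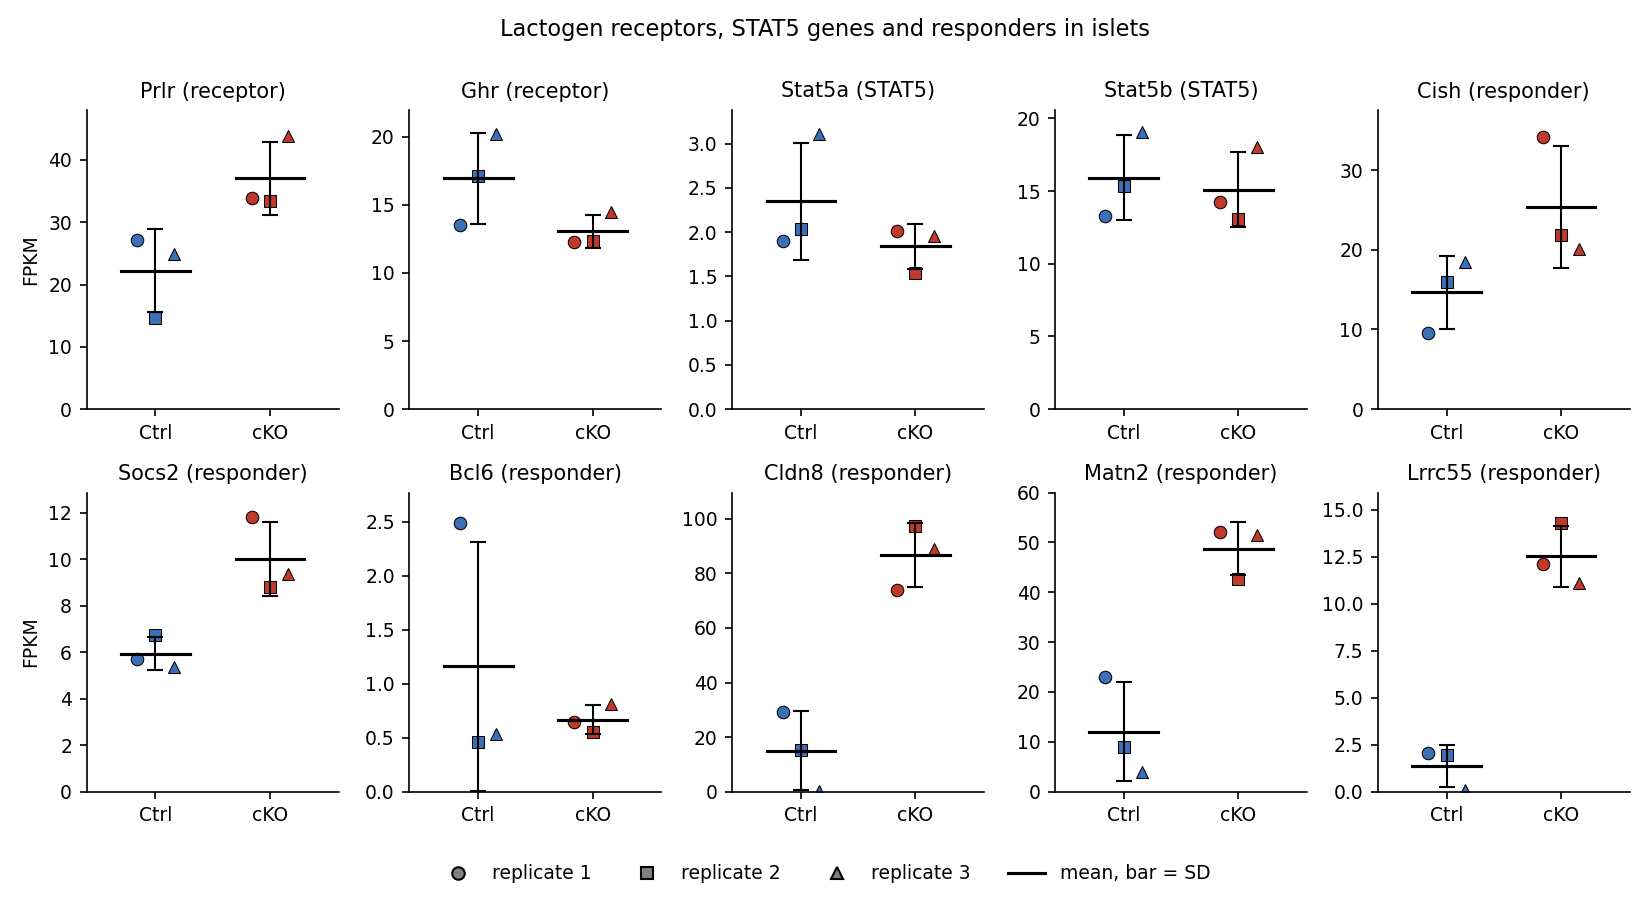
FPKM of the 10 genes in each Ctrl and cKO islet sample, with 1 marker shape per replicate number, the mean as a line and the SD as a bar (n = 3 per genotype), and a vertical axis of its own for each gene. *Prlr*, *Cish*, *Socs2*, *Cldn8*, *Matn2* and *Lrrc55* have all cKO samples above all Ctrl samples, whereas *Ghr*, *Stat5a*, *Stat5b* and *Bcl6* overlap.

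The remaining responders are β-cell genes with much wider differences. *Cldn8* encodes claudin 8, a tight-junction protein, in a single exon at chr16:88560828-88563183 (minus strand). It was at 29.4, 15.2 and 0.383 FPKM in Ctrl and 74.1, 97.3 and 88.9 FPKM in cKO islets. Every cKO sample was above every Ctrl sample, and Ctrl replicate 3, with 15 reads, was almost without the transcript while cKO samples had 3066 to 3986 reads. The ratio of means was 5.80. Its log2 difference of 3.31 (SE 1.07) ranked 1 of the 21211 genes in the fit, and it was 1.98 without Ctrl replicate 3 and 4.21 without Ctrl replicate 1. This rank, like those given below, is that of the fit with a pseudocount of 1 and all samples. With a pseudocount of 0.1 *Cldn8* was at 3.84, below *Tph1*, a gene described further on, at 4.22.

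*Matn2* encodes matrilin 2, a secreted protein of the extracellular matrix. It was at 23.1, 8.99 and 4.03 FPKM in Ctrl and 52.1, 42.6 and 51.5 FPKM in cKO islets, again with no overlap and with Ctrl replicate 1 the highest of its group. The log2 difference was 2.22 (SE 0.52), rank 9, and the ratio of means 4.05. It was 2.80 without Ctrl replicate 1 and 1.67 without Ctrl replicate 3. Stroma is another source of matrix, and the 8 stromal markers, led by *Dcn*, summed to 20.4, 11.8 and 13.9 FPKM in Ctrl and 15.6, 46.0 and 43.4 FPKM in cKO islets. In cKO replicate 1 the stromal sum was within the Ctrl range while *Matn2* was at 52.1 FPKM. The 4 adipocyte markers summed to at most 0.250 FPKM. The 6 endothelial markers, led by *Plvap*, were the only summed list besides β cells without overlap, at 114, 101 and 113 FPKM in Ctrl and 123, 138 and 155 FPKM in cKO islets. The part of stromal and endothelial cells in the differences was not tested. Acinar markers, led by *Ctrb1*, summed to 13083, 20157 and 7440 FPKM in Ctrl and 33464, 9208 and 27944 FPKM in cKO islets, and duct markers, led by *Spp1*, to 53.2 to 88.3 FPKM, both with overlap.

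*Lrrc55* encodes an auxiliary subunit of the large-conductance potassium channel BK. It was at 2.08, 1.95 and 0.0737 FPKM in Ctrl and 12.1, 14.3 and 11.1 FPKM in cKO islets. All cKO samples were above all Ctrl samples, and Ctrl replicate 3 rested on 5 reads, for which the exact 95% Poisson interval, covering counting error only, is 0.0239 to 0.172 FPKM. The ratio of means, 9.16, was the highest in the set, and the log2 difference was 2.66 (SE 0.41), rank 6. Because the level is low, the pseudocount of 1 shrinks it: with 0.1 it was 3.77. Without Ctrl replicate 3 it was 2.16, and without Ctrl replicate 1 it was 2.92.

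The *Lrrc55* gene (chr2:85162334-85196699, minus strand) is overlapped by the antisense genes *Gm13716* and *Gm13713*, which share 266 and 210 of its exonic bases, 4.11% and 3.24% of them. *Gm13716* was at 5.75, 4.17 and 0.149 FPKM in Ctrl and 24.0, 25.9 and 20.7 FPKM in cKO islets. *Gm13713* was at 1.40, 1.13 and 0.0666 FPKM in Ctrl and 6.31, 7.27 and 6.19 FPKM in cKO islets. Both antisense genes thus had the pattern of *Lrrc55* in every sample group. Since the use of strand in counting is not given in the sources used here, reads of the partners cannot be told apart within the shared bases. The sense gene itself is annotated with 3 exonic blocks, and its length in the table, 4080 bases, is shorter than the 6474 exonic bases of GENCODE M21. For the other 9 genes the length and coordinates were the same in both. *Prlr*, *Cish*, *Bcl6* and *Matn2* share between 21 and 479 exonic bases with other annotated genes, at most 7.46% of their own.

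Receptors and responders did not divide cleanly by role: *Prlr* lay between *Cish* and *Socs2*, and *Bcl6* between *Stat5a* and *Ghr*. The median log2 difference was 1.49 over the 6 responders and -0.15 over the 4 receptor and STAT5 genes, beside -0.01 over all genes tested. In 6 of the 10 genes every cKO sample was above every Ctrl sample, *Prlr* and 5 of the 6 responders. Over all genes tested this held for 7.11%, and 6.03% had every cKO sample below every Ctrl sample. At an unadjusted p under 0.05 (limma), 4.33% of all genes were higher and 3.07% lower. The members were selected on this very contrast, so nothing is read from their count against these shares. No gene of the whole table passed an adjusted p under 0.05 in limma, where 919 genes were higher and 651 lower at an unadjusted p under 0.05, and limma voom on reads read back from FPKM gave none either.

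**Figure D2:**
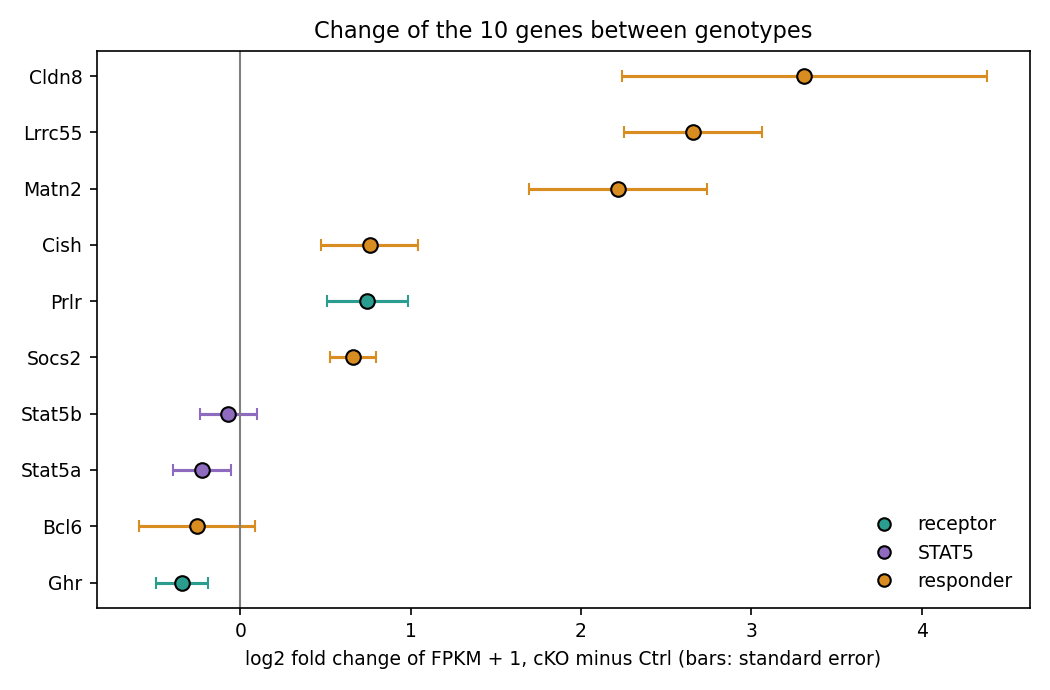
Log2 difference of FPKM + 1 between cKO and Ctrl islets for the 10 genes, with the standard error of the limma fit as a bar and colours for receptor, STAT5 and responder. *Cldn8*, *Lrrc55* and *Matn2* lie above 2, *Cish*, *Prlr* and *Socs2* between 0.66 and 0.76, and *Stat5b*, *Stat5a*, *Bcl6* and *Ghr* below 0.

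Sample by sample, the mean log2(FPKM + 1) of the 6 responders was 3.18, 2.75 and 1.75 in Ctrl and 4.20, 4.07 and 4.07 in cKO islets. For the receptors and STAT5 genes it was 3.51, 3.45 and 3.87 in Ctrl and 3.59, 3.50 and 3.81 in cKO islets. Ctrl replicate 3 therefore combined the highest mean of the receptors and STAT5 genes of all samples with the lowest responder mean. The receptor and STAT5 mean pools genes that differed in direction. *Ghr*, *Stat5a* and *Stat5b* were highest in Ctrl replicate 3, but *Prlr*, at 24.9 FPKM there, was below Ctrl replicate 1 and every cKO sample. Ctrl replicate 3 also had the lowest sum of the 2 PP-cell markers, led by *Ppy*. It was 9274 FPKM there, against 14442 to 22017 FPKM in the other samples, and its part in the responder values was not tested.

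**Figure D3:**
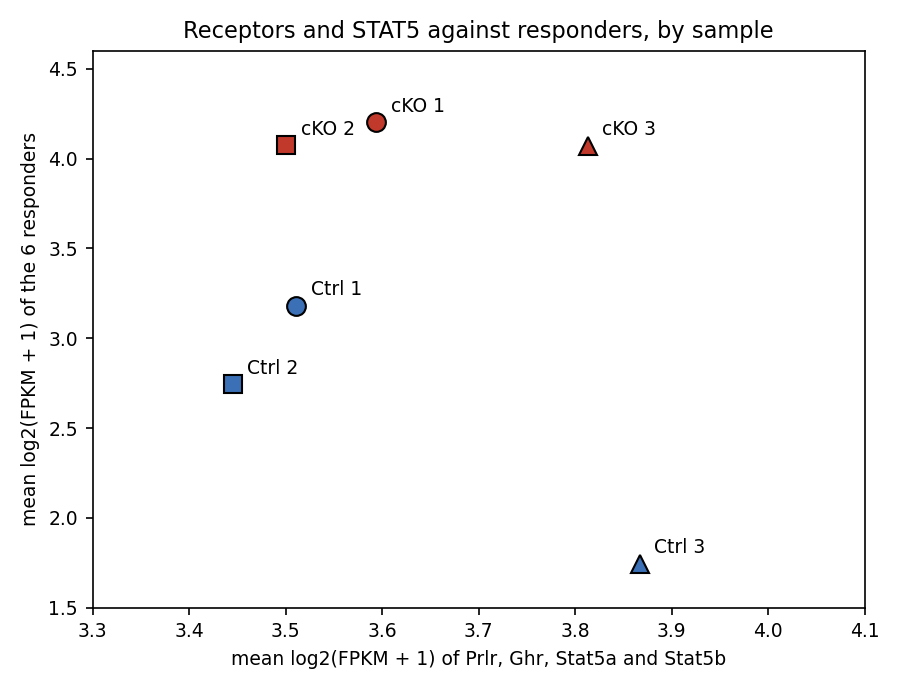
Mean log2(FPKM + 1) of *Prlr*, *Ghr*, *Stat5a* and *Stat5b* (horizontal axis) against that of the 6 responders (vertical axis), 1 point per islet sample. The cKO samples lie between 4.07 and 4.20 on the vertical axis, above the Ctrl samples at 1.75 to 3.18, while both genotypes span a like range on the horizontal axis. The horizontal mean pools *Prlr*, which was higher in every cKO sample, with *Ghr*, *Stat5a* and *Stat5b*, which overlapped between genotypes.

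The responders were also set relative to *Prlr* in each sample, as a description of the same values. FPKM of *Cldn8* relative to *Prlr* was 1.08, 1.03 and 0.0154 in Ctrl and 2.19, 2.91 and 2.03 in cKO islets. For *Matn2* it was 0.851, 0.614 and 0.162 in Ctrl and 1.54, 1.27 and 1.17 in cKO islets. For *Lrrc55* it was 0.0766, 0.133 and 0.00296 in Ctrl and 0.358, 0.428 and 0.254 in cKO islets. For these 3 genes the ratios did not overlap. *Cish* relative to *Prlr* overlapped, with 0.353, 1.09 and 0.742 in Ctrl and 1.01, 0.654 and 0.458 in cKO islets. *Socs2* relative to *Prlr* overlapped as well, with 0.210, 0.461 and 0.216 in Ctrl and 0.349, 0.264 and 0.214 in cKO islets. *Bcl6* relative to *Prlr* went the other way. It was 0.0918, 0.0311 and 0.0216 in Ctrl and 0.0191, 0.0164 and 0.0185 in cKO islets, lower in every cKO sample, although *Bcl6* itself overlapped.

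The order of levels also changed. In Ctrl islets the means ran from *Prlr* (22.2 FPKM) through *Ghr*, *Stat5b*, *Cldn8*, *Cish*, *Matn2*, *Socs2*, *Stat5a* and *Lrrc55* to *Bcl6* (1.16 FPKM), and the sample ranges of neighbours overlapped at every step except between *Socs2* and *Stat5a*. In cKO islets *Cldn8* was first at 86.8 ± 11.8 FPKM (SD, n = 3), followed by *Matn2* at 48.7 ± 5.32, *Prlr*, *Cish*, *Stat5b*, *Ghr*, *Lrrc55*, *Socs2*, *Stat5a* and *Bcl6* at 0.668 ± 0.131. There the ranges did not overlap between *Cldn8* and *Matn2*, *Cish* and *Stat5b*, *Socs2* and *Stat5a*, or *Stat5a* and *Bcl6*.

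Ctrl islets differed widely among themselves in the β-cell responders, and cKO islets did not. The highest Ctrl sample was 76.7 times the lowest for *Cldn8*, 28.2 times for *Lrrc55* and 5.73 times for *Matn2*. In cKO islets these ratios were 1.31, 1.29 and 1.22. For all 3 genes the lowest Ctrl sample was replicate 3. Ctrl replicates 1 and 2 were at 29.4 and 15.2 FPKM for *Cldn8*, 2.08 and 1.95 for *Lrrc55* and 23.1 and 8.99 for *Matn2*. The wide Ctrl spread of *Lrrc55* thus rested on replicate 3, as did much of that of *Cldn8*. Among the 13363 genes with a mean of at least 1 FPKM, 99.8% had a smaller SD of log2 values within Ctrl than *Cldn8*, 97.8% than *Matn2* and 96.1% than *Lrrc55*, whereas within cKO these shares were 72.0%, 61.1% and 65.0%. *Socs2* was unremarkable in Ctrl, with 41.0%. *Cish* was variable in both genotypes, with 89.2% in Ctrl and 91.6% in cKO islets, and in Ctrl it ran against the others: its lowest Ctrl sample, replicate 1, was the highest for *Cldn8*, *Matn2* and *Lrrc55*.

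Because libraries differed in Y-linked reads, the pair without any was set side by side, Ctrl replicate 3 and cKO replicate 2. *Cldn8* was at 0.383 against 97.3 FPKM, *Lrrc55* at 0.0737 against 14.3 FPKM and *Matn2* at 4.03 against 42.6 FPKM. *Socs2* was at 5.37 against 8.82 FPKM, *Prlr* at 24.9 against 33.4 FPKM and *Cish* at 18.5 against 21.9 FPKM. *Ghr* was at 20.2 against 12.3 FPKM, *Stat5a* at 3.11 against 1.54 FPKM, *Stat5b* at 19.1 against 13.0 FPKM and *Bcl6* at 0.538 against 0.549 FPKM. With 1 sample on each side there is no test, and for genes whose groups do not overlap the direction in any pair is fixed, so nothing is read from it. Among the Ctrl samples, *Cldn8*, *Matn2* and *Lrrc55* were lowest in the replicate without Y-linked reads, and whether this follows the sex of the mice was not tested.

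Other genes known from pregnancy or lactogen treatment to respond in β cells were described next, also with no test, since their rise was known when they were listed. Of 9, 7 were in the fit, and in 6 every cKO sample was above every Ctrl sample, with a median log2 difference of 1.25 over the 7. Over all genes tested, 7.11% had every cKO sample above every Ctrl sample, and the median log2 difference was -0.01. Nothing is read from the count against this share. *Tph1*, which makes serotonin in islets of pregnant mice, was at 26.2, 3.45 and 0 FPKM in Ctrl and 43.7, 29.9 and 46.2 FPKM in cKO islets. Ctrl replicate 1 was the highest of its group, as for *Cldn8*, and replicate 3 was listed at 0 reads, where 3 reads would be 0.0292 FPKM. Its log2 difference was 3.02, with 1.87 without Ctrl replicate 3 and 4.25 without Ctrl replicate 1. *Tph2*, the second enzyme of this kind, was at 2.73, 1.61 and 1.19 FPKM in Ctrl and 6.27, 5.69 and 5.76 FPKM in cKO islets.

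*Tnfrsf11b*, the decoy receptor osteoprotegerin, was at 15.2, 9.18 and 1.73 FPKM in Ctrl and 34.8, 35.9 and 22.0 FPKM in cKO islets, a log2 difference of 2.03 that was 1.28 without Ctrl replicate 3. *Ivd*, an enzyme of leucine breakdown, was at 29.1, 27.1 and 20.9 FPKM in Ctrl and 81.3, 45.4 and 44.1 FPKM in cKO islets. *Ehhadh*, a peroxisomal enzyme of fatty acid oxidation, was at 8.56, 9.02 and 7.36 FPKM in Ctrl and 21.5, 18.2 and 23.7 FPKM in cKO islets. All 3 were without overlap, and each had its lowest Ctrl value in replicate 3.

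*Htr3a*, a serotonin-gated channel, was at 0.715, 0.763 and 0.519 FPKM in Ctrl and 1.45, 3.53 and 2.84 FPKM in cKO islets. It too was without overlap. *Slc2a2*, the glucose transporter GLUT2, overlapped between genotypes, and its log2 difference was -0.10 (SE 0.23). The serotonin receptors *Htr2b* and *Htr1d* were below the filter.

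**Figure D4:**
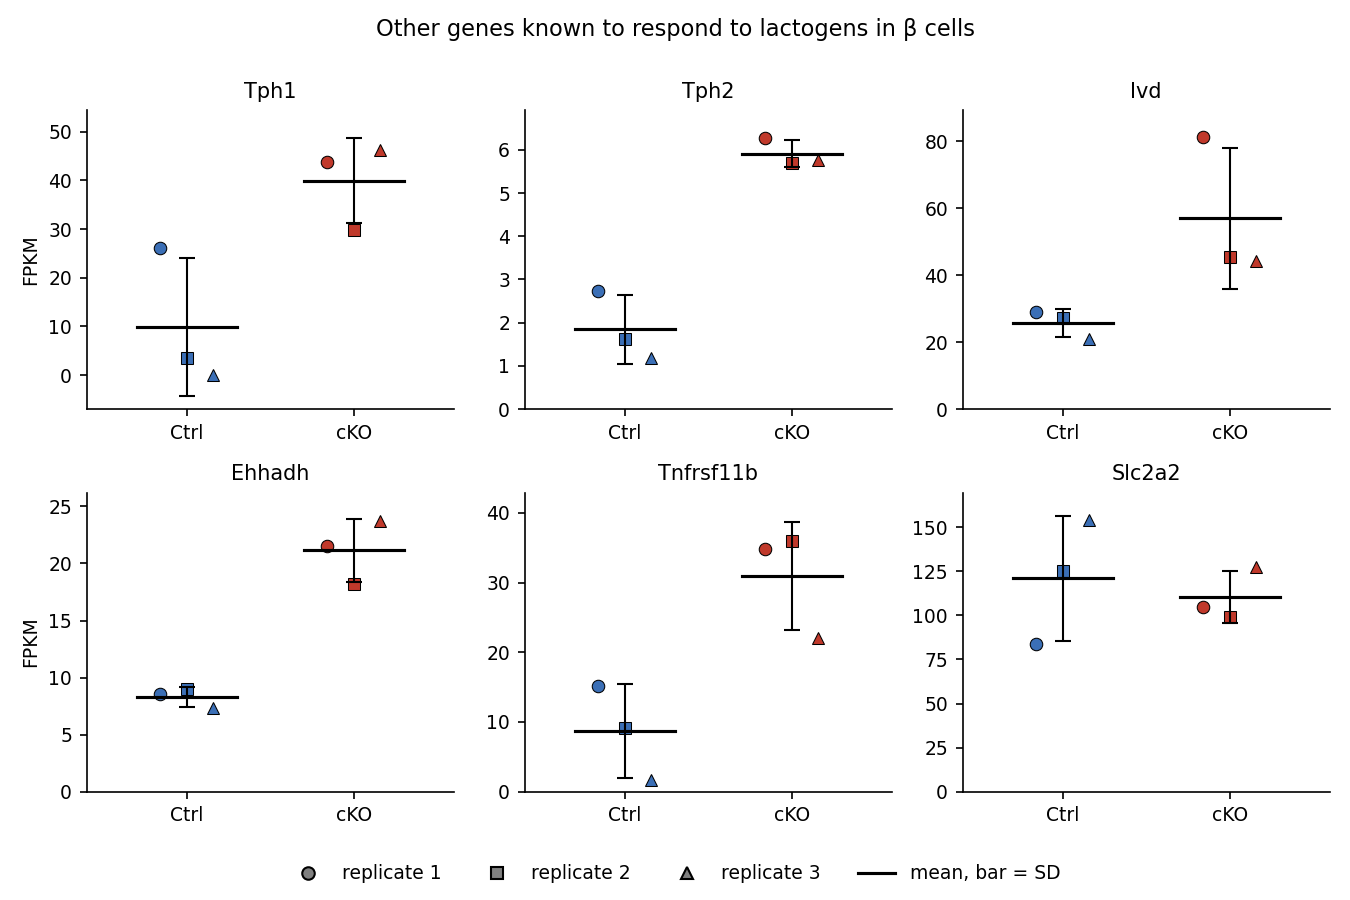
FPKM of 6 other genes known to respond to lactogens in β cells, in each Ctrl and cKO islet sample, with the mean as a line and the SD as a bar (n = 3 per genotype). The first 5 panels have every cKO sample above every Ctrl sample, and *Slc2a2* overlaps.

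The wider pathway was examined with lists of 90 genes outside the set, of which 75 were in the fit. Of these, 31 were higher and 44 lower in cKO islets, with a median log2 difference of -0.04. At an unadjusted p under 0.05 (limma), 3 were higher (*Cdkn1a*, *Ptpn11* and *Il13ra1*) and 4 lower (*Cdkn2c*, *Lrrc26*, *Socs1* and *Jak3*), and at an adjusted p under 0.05 there were none. These counts stand beside the shares of all genes given above, 4.33% higher and 3.07% lower.

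Related cytokine receptors gave 1 call among 14 tested: *Il13ra1*, a chain of the interleukin 13 receptor, was at 7.72, 6.78 and 5.13 FPKM in Ctrl and 9.34, 9.67 and 8.30 FPKM in cKO islets. Its log2 difference was 0.43 (SE 0.15, unadjusted p = 0.0231, adjusted p = 0.585, limma). Kinases and the other STATs gave 1 call among 8 tested, *Jak3*, a kinase of lymphocyte receptors, which was lower by -0.29 on the log2 scale (SE 0.12, unadjusted p = 0.0436, adjusted p = 0.662, limma) and by -0.23 (unadjusted p = 0.111) without Ctrl replicate 1. *Jak2*, the kinase that both receptors of the set use, was at 6.04 ± 1.10 FPKM (SD, n = 3) in Ctrl and 5.86 ± 0.306 in cKO islets. Its log2 difference was -0.03 (SE 0.14), and that of *Stat3*, a STAT activated by other cytokines, was 0.13 (SE 0.11).

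Of 19 inhibitors of cytokine signalling other than *Cish* and *Socs2*, 5 were higher and 14 lower, with 1 call in each direction, while over all 21211 genes tested 9856 were higher and 11355 lower. *Socs1*, a suppressor induced mainly by interferons, was at 2.07, 1.25 and 1.20 FPKM in Ctrl and 0.587, 0.989 and 0.856 FPKM in cKO islets. Its log2 difference was -0.46 (SE 0.18, unadjusted p = 0.0374, adjusted p = 0.645, limma), and it was -0.30 (unadjusted p = 0.0825) without Ctrl replicate 1, its highest sample. *Ptpn11*, the phosphatase SHP2, was at 27.0, 27.1 and 27.4 FPKM in Ctrl and 31.0, 31.5 and 33.8 FPKM in cKO islets, a log2 difference of 0.23 (SE 0.07, unadjusted p = 0.0160, adjusted p = 0.546, limma). *Socs3* overlapped between genotypes, at -0.29 (SE 0.22).

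STAT5 targets of other tissues gave no call among 13 tested at an unadjusted p under 0.05 in limma. *Igf1*, the main growth hormone target of liver, was at 0.556, 0.237 and 0.115 FPKM in Ctrl and 0.50, 0.558 and 0.586 FPKM in cKO islets. The overlap came from Ctrl replicate 1 alone. The log2 difference of *Igf1* was 0.26 (unadjusted p = 0.117, limma) with all samples, 0.40 (unadjusted p = 0.0132, limma) without that replicate and 1.11 (unadjusted p = 0.0390) in limma voom, so that the absence of a call rested on this library and on the scale. The level of *Igf1* was low, at most 0.586 FPKM in any sample. Ctrl replicate 1 is also the library with the high leukocyte sum, and the part of cells other than β cells in these values was not tested.

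The menin and cell cycle list holds menin, cell cycle inhibitors that prolactin is known to lower in islets of pregnant mice, and genes of dividing cells. Of its 12 genes 10 were lower, with a median log2 difference of -0.33, beside 11355 of all 21211 genes tested. Without Ctrl replicate 1, 9 were lower and the median was -0.06. The 7 genes of dividing cells (*Mki67*, *Top2a*, *Birc5*, *Ccna2*, *Ccnb1*, *Cdk1* and *Foxm1*) were all highest in Ctrl replicate 1, the library with the high leukocyte sum, as with *Top2a* at 3.45 FPKM there against 0.360 to 0.994 FPKM in the other samples. *Cdkn2c*, the inhibitor p18, was at 5.40, 4.90 and 5.33 FPKM in Ctrl and 2.69, 2.55 and 3.75 FPKM in cKO islets. It was lower in every cKO sample, by -0.65 on the log2 scale (SE 0.14, unadjusted p = 0.00263, adjusted p = 0.392, limma). *Cdkn1a*, the inhibitor p21, was at 23.9, 5.40 and 8.61 FPKM in Ctrl and 46.7, 36.1 and 47.7 FPKM in cKO islets, higher by 1.94 (SE 0.47, unadjusted p = 0.00533, adjusted p = 0.454, limma). *Cdkn1b*, the inhibitor p27, named after its values were seen, was at 21.4, 22.2 and 22.4 FPKM in Ctrl and 19.6, 20.3 and 18.5 FPKM in cKO islets, a log2 difference of -0.17 (SE 0.07, unadjusted p = 0.0601, adjusted p = 0.691, limma). Of the 3 inhibitors, *Cdkn2c* and *Cdkn1b* were thus lower and *Cdkn1a* higher without overlap, with *Cdkn1b* not past the unadjusted threshold.

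*Men1*, which encodes menin, overlapped between genotypes at 0.17 (SE 0.10), as did *Ccnd2*, the cyclin D2 of β-cell proliferation, at -0.01 (SE 0.08). *Mki67*, a marker of dividing cells, averaged 1.73 ± 1.85 FPKM (SD, n = 3) in Ctrl and 0.475 ± 0.0857 in cKO islets. Its Ctrl mean rests on replicate 1, at 3.85 FPKM against 0.385 to 0.890 FPKM in the other samples, and its log2 difference of -0.68 was -0.16 without that replicate.

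Relatives of the responder genes were included to see whether gene families moved together. Of 9 tested, 6 were higher and 3 lower. *Lrrc26*, another auxiliary subunit of the BK channel, was at 0.819, 1.87 and 1.21 FPKM in Ctrl and 0.574, 0.290 and 0.325 FPKM in cKO islets. It was lower in every cKO sample (-0.70, SE 0.19, unadjusted p = 0.00945, adjusted p = 0.509, limma). With a pseudocount of 0.1 the log2 difference of *Lrrc26* was -1.47. *Lrrc38*, a further subunit of this kind that was named after its values were seen, was at 0.838, 0.875 and 0.155 FPKM in Ctrl and 1.05, 1.04 and 1.67 FPKM in cKO islets, higher in every cKO sample and, like *Lrrc55*, lowest in Ctrl replicate 3. Its log2 difference was 0.50 (SE 0.23, unadjusted p = 0.0693, adjusted p = 0.696, limma), and 0.27 without Ctrl replicate 3.

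**Figure D5:**
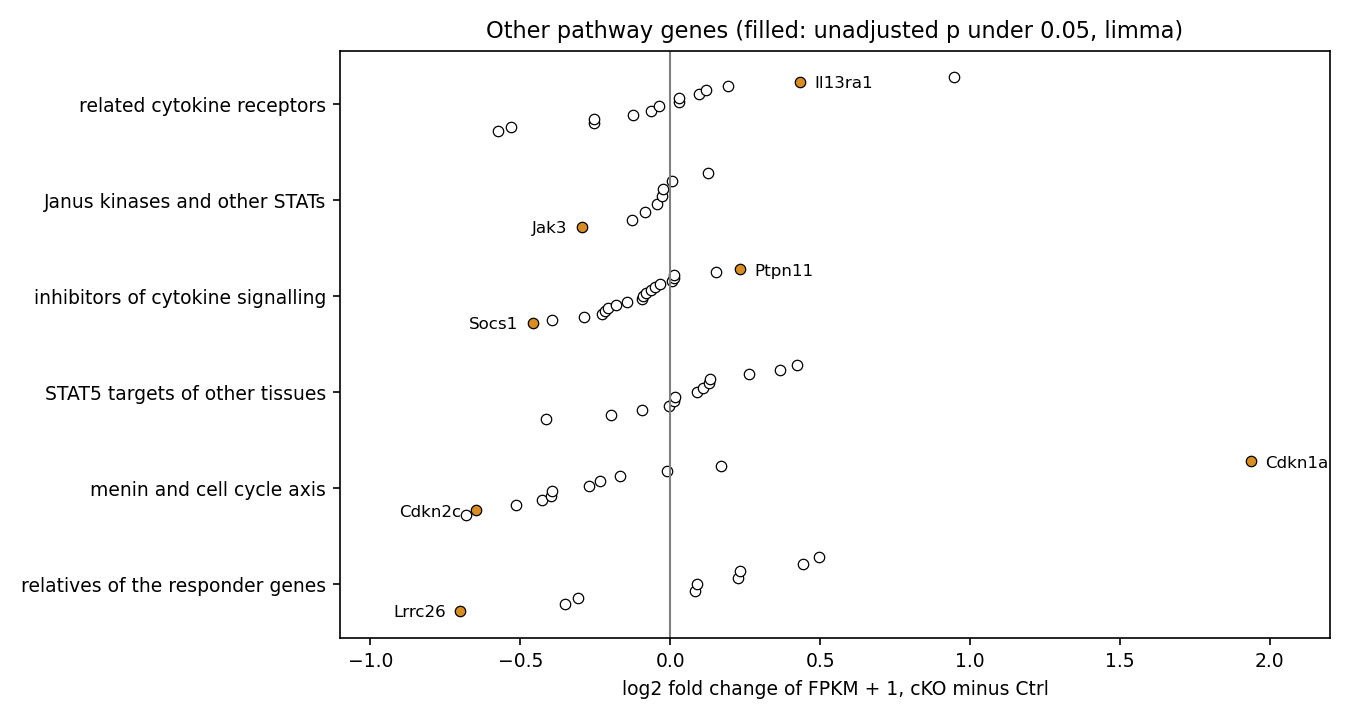
Log2 difference of FPKM + 1 between cKO and Ctrl islets for the 75 tested genes of 6 pathway lists, 1 point per gene, filled and named at an unadjusted p under 0.05 (limma). Most points lie near 0, and the largest is *Cdkn1a* at 1.94.

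Genes with a pattern like that of the axis were sought among 11314 protein-coding genes with a mean of at least 1 FPKM, by Pearson's r of log2(FPKM + 1) over the 6 samples, as a description. For *Prlr* these were *Ppp2r3a* (r = 0.996), *Btbd9* (0.993), *Fer* (0.988), *Lpar1* (0.984) and *Sept9* (0.984), the last matched by its identifier. For *Cish* they were *Grhl1* (0.992), *Sema4a* (0.990), *Limk2* (0.988), *Zfp92* (0.988) and *D17Wsu92e* (0.987). The mean of the standardised responders was followed most closely by *Dhx40* (0.999), *Tm9sf1* (0.997), *Dnah8* (0.996), *Sytl1* (0.995) and *Carhsp1* (0.995). The 3 lists had no gene in common. Within the set, *Cldn8*, *Matn2* and *Lrrc55* correlated with each other at 0.942 to 0.956, while *Cish* correlated with them at 0.282 to 0.558 and *Prlr* at 0.540 to 0.742. All samples share the difference of genotype, which carries part of each value.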

How the data were processed

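Total RNA of isolated islets was extracted with TRIzol and made into libraries with a SMARTER mRNA kit. The authors deposited FPKM for each gene in each sample, with GRCm38 coordinates, and compared genotypes with DESeq2. The aligner, the counter and the use of strand are not given in the sources used here. Multiplied by gene length, 100% of values were whole numbers of reads (tolerance 0.05 read), which gave the reads on genes and the library size used as divisor. The deposited FPKM were already scaled between samples, to judge by a median-of-ratios factor that was the same in each. Labels of the authors gave the groups.

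Values were compared as log2(FPKM + 1) with limma 3.58.1 in R 4.3.3 (empirical Bayes with trend, two-sided, Benjamini-Hochberg adjustment) over 21211 genes with a mean of at least 0.1 FPKM. The p-values measure the spread between samples. The code was tested on simulated data. The members and lists were chosen with earlier results of these data known. Genes named are the members, *Parn*, *Ins2*, the other lactogen responders, list genes at an unadjusted p under 0.05, 10 pathway genes whatever their values, cell type markers and the 5 most alike; some listed genes are not reported here. The 16 alternatives covered pseudocount, filter, trend, scaling, voom, a replicate block and single samples left out. Tables and figures were made with Python 3.11.15, pandas 2.3.3 and matplotlib 3.10.9.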

Additional observations from a re-analysis of the deposited data

How the results depend on the processing

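Under the 16 alternatives, the named log2 differences kept their sign except those of *Bcl6*, *Stat5b*, *Slc2a2*, *Jak2* and *Ccnd2*, which changed it when single samples were left out, and that of *Ccnd2* also under quantile normalization. Of 919 genes higher and 651 lower at an unadjusted p under 0.05 in limma, a library size without *Ins1* and *Ins2* gave 619 and 1257, with the median of all genes at -0.07, and leaving out single samples gave 683 to 1231 and 401 to 1142. Under that library size *Prlr* was at 0.66, *Cish* at 0.67, *Socs2* at 0.58 and *Cldn8* at 3.24. Without Ctrl replicate 1, 10 genes were higher and 4 lower at an adjusted p under 0.05 (limma), against none with all samples. Of the pathway genes, 3 were higher, with 6 under quantile normalization, 5 in voom and 2 to 5 with single samples left out, and 4 were lower, with 2 at a filter of at least 1 FPKM, 10 without insulin reads and 2 to 7 with single samples left out. *Cdkn1a* and *Cdkn2c* kept an unadjusted p under 0.05 in all 16 alternatives, *Lrrc26* in all 15 run, *Socs1* in 10, *Jak3* in 12 and *Ptpn11* and *Il13ra1* in 14 each. *Ptpn11* lost it without insulin reads, at 0.14, or cKO replicate 3, at 0.20, and *Il13ra1* without cKO replicate 1, at 0.42, or 2, at 0.39. *Igf1* gained it without Ctrl replicate 1 and in voom, *Cdkn1b* without a filter and without insulin reads, at -0.25, *Socs3* without cKO replicate 2, at -0.52, and *Mki67* without Ctrl replicate 2, at -1.04. The responders' median, 1.49, was 2.22 with the filter of at least 1 FPKM, which removes *Bcl6*, and 1.31 to 1.72 with single samples left out; that of receptors and STAT5 was then -0.25 to 0.00. In voom *Lrrc55* was at 4.17, *Tph1* at 5.65, *Lrrc26* at -1.62, *Lrrc38* at 1.30, *Csf2rb* at 1.95, *Mki67* at -1.33 and *Socs1* at -0.88. The median of the other lactogen responders was between 1.15 and 1.75.

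With the replicate block, 737 genes were higher and 538 lower, and none had an adjusted p under 0.05 (limma). Deviations of same-numbered samples correlated at -0.17, -0.02 and -0.07, so the numbers did not pair the samples. Depth limits *Cldn8* and *Lrrc55* in Ctrl replicate 3, with 15 and 5 reads.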

Other observations

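*Csf2rb*, the shared β chain of receptors for interleukin 3, interleukin 5 and GM-CSF, which also signal through STAT5, had the largest log2 difference among the related cytokine receptors. It was named after its values were seen. Its level was 2.16, 0.472 and 0.215 FPKM in Ctrl and 2.48, 1.54 and 3.56 FPKM in cKO islets, with overlap through Ctrl replicate 1, and the log2 difference was 0.95 (SE 0.39, unadjusted p = 0.0506, adjusted p = 0.675, limma). Its Ctrl samples had the order of *Cldn8* and *Matn2*, highest in replicate 1 and lowest in replicate 3. The summed leukocyte markers had this order as well, at 1046, 194 and 184 FPKM in Ctrl, beside 181, 311 and 311 FPKM in cKO islets. The part of leukocytes in the values of *Csf2rb* was not tested. An unadjusted p under 0.05 (limma) was reached in 7 of 16 alternatives, among them the one without Ctrl replicate 1, where the log2 difference was 1.36.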
